A study of Hydra oligactis with 61 samples.

Results

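Among the transcripts of the freshwater polyp *Hydra oligactis*, 27 of 23396 were enriched in the mature head and had a rise under 0.5 in log2(1 + CPM) at the head-regenerating wound by 48 hours post amputation (hpa). CPM is a count divided by the library's total count and multiplied by 1000000. The members were chosen by these measured values: a transcript was taken when its level, log2(1 + the mean CPM of a group), was at least 3 higher in uninjured heads than in each of uninjured feet, oral-facing tissue at 0 hpa and aboral-facing tissue at 0 hpa, and when the level at 48 hpa in regenerating heads was less than 0.5 above that at 0 hpa. The head criteria alone held for 286 transcripts, of which the other 259 are called the other head transcripts. Every value from uninjured heads, uninjured feet, the first-batch 0 hpa libraries and the 48 hpa head regenerates was used by this choice, so these values are given as a description and carry no test.

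The series holds 61 poly(A) RNA libraries of the Innsbruck 12 strain, each from about 30 tissue segments pooled from as many animals. Animals were cut at mid-body and the tissue next to the wound was taken. Head regeneration (HR) samples are the oral-facing wound and foot regeneration (FR) samples the aboral-facing wound, in DMSO, with 7 libraries each at 0 hpa and 3 each at the later times of 3, 12, 24 and 48 hpa. ALP samples are aboral-facing wounds kept for 3 hours in 5 uM alsterpaullone, a kinase inhibitor used to activate Wnt signalling, and then washed, at 3, 12 and 24 hpa (3 libraries each) and 48 hpa (4 libraries). Uninjured heads, cut just below the tentacle ring (Head), and uninjured feet with the peduncle (Foot) have 5 libraries each, and their labels also give DMSO. The series description gives 0.5% DMSO at 3, 12 and 48 hpa and 0.05% in the other DMSO groups, where the methods give 0.05%. FR pools mix animals that would and would not have regrown a foot. ALP pools mix outcomes too. At this dose the study reports animals that regrew a foot, animals that did not, and a small share with an extra head at the aboral wound. The 24 hpa samples, replicates 5 to 7 of HR and FR at 0 hpa and some Head and Foot libraries form a second sequencing batch. Libraries held 14551000 to 26108400 counts. In bulk tissue, fewer cells of a type and less RNA per cell cannot be told apart.

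A *Hydra* head consists of the mouth-bearing hypostome and a ring of tentacles. The hypostome holds the organizer, which secretes Wnt ligands, and the tentacles carry stinging cells, battery cells and a dense sensory nerve net. A regenerating tip expresses organizer genes first and differentiates tentacle and hypostome cells later. Tissue identity was checked with marker genes. The 4 head markers wnt3, wnt7, wnt9/10c and brachyury1 together reached 229 to 272 CPM in Head, against 3.55 to 5.02 CPM in Foot. The 4 foot markers nk2, dlx2, gata3 and tld together reached 4.66 to 8.17 CPM in Head, against 328 to 347 CPM in Foot. In HR tissue at 48 hpa the head markers together stood at 112 to 163 CPM, against 4.27 to 8.52 CPM in the first-batch HR libraries at 0 hpa.

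Of the 27 transcripts, 15 have a protein name in the study's annotation and 12 have none. No member belongs to the list of Wnt pathway genes, which holds 6 head transcripts, nor to those of potassium channels (6), matrix proteins (14) or neuropeptide precursors (4). Other lists with head transcripts, such as lectins, also hold no member. The members are only 27 of the 286 head transcripts, and the 12 without a name cannot fall in lists made by name. Nothing is read from these absences. Among the named members are 4 matches to small-molecule G protein-coupled receptors (Histamine H2 receptor, Dopamine receptor 4, Adenosine receptor A2a and Cysteinyl leukotriene receptor 1), an adhesion receptor (Latrophilin Cirl), a ligand-gated channel subunit (Neuronal acetylcholine receptor subunit alpha-7), 3 proteins named for ankyrin repeats, the actin-capping protein Tropomodulin-2, the calcium sensor Calmodulin, the protease Astacin, the forkhead factor Forkhead box protein E4, Mucin-5B and Saxiphilin, the last named after a toxin-binding transferrin relative of frogs. Transcript identifiers with the same first number come from the same assembly component, and 3 pairs of members do so (R028354, R039289 and R018241). Members also share a component with other head transcripts outside the limit. These are R034105c1g1_i04 with R034105c1g4_i01, and R032486c0g1_i02 with R032486c0g2_i01. The partners differed by 0.794 and 0.881 between HR at 48 and 0 hpa on the log2(1 + CPM) scale. Reads that such transcripts share cannot be assigned to either of them with certainty.

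A transcript sequence was at hand for 1 member, R003053c0g1_i01, whose best protein match is an ankyrin repeat protein. Its longest open reading frame spans bases 49 to 486 of the 542-base transcript and holds 145 codons before the stop. The first 300 bases of the frame are shown as the identity of a member with hardly a read outside heads. Capitals mark the start codon, and the chromosome is not given in the sources used here.
R003053c0g1_i01: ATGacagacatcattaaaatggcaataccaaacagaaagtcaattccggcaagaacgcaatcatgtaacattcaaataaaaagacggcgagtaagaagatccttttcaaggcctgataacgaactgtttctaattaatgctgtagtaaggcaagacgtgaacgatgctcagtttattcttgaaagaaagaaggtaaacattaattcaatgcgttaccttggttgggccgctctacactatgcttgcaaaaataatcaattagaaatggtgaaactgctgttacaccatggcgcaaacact
This transcript had a mean of 8.94 CPM in Head, and 43 of the 56 libraries outside Head held no count of it.

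**Figure D1:**
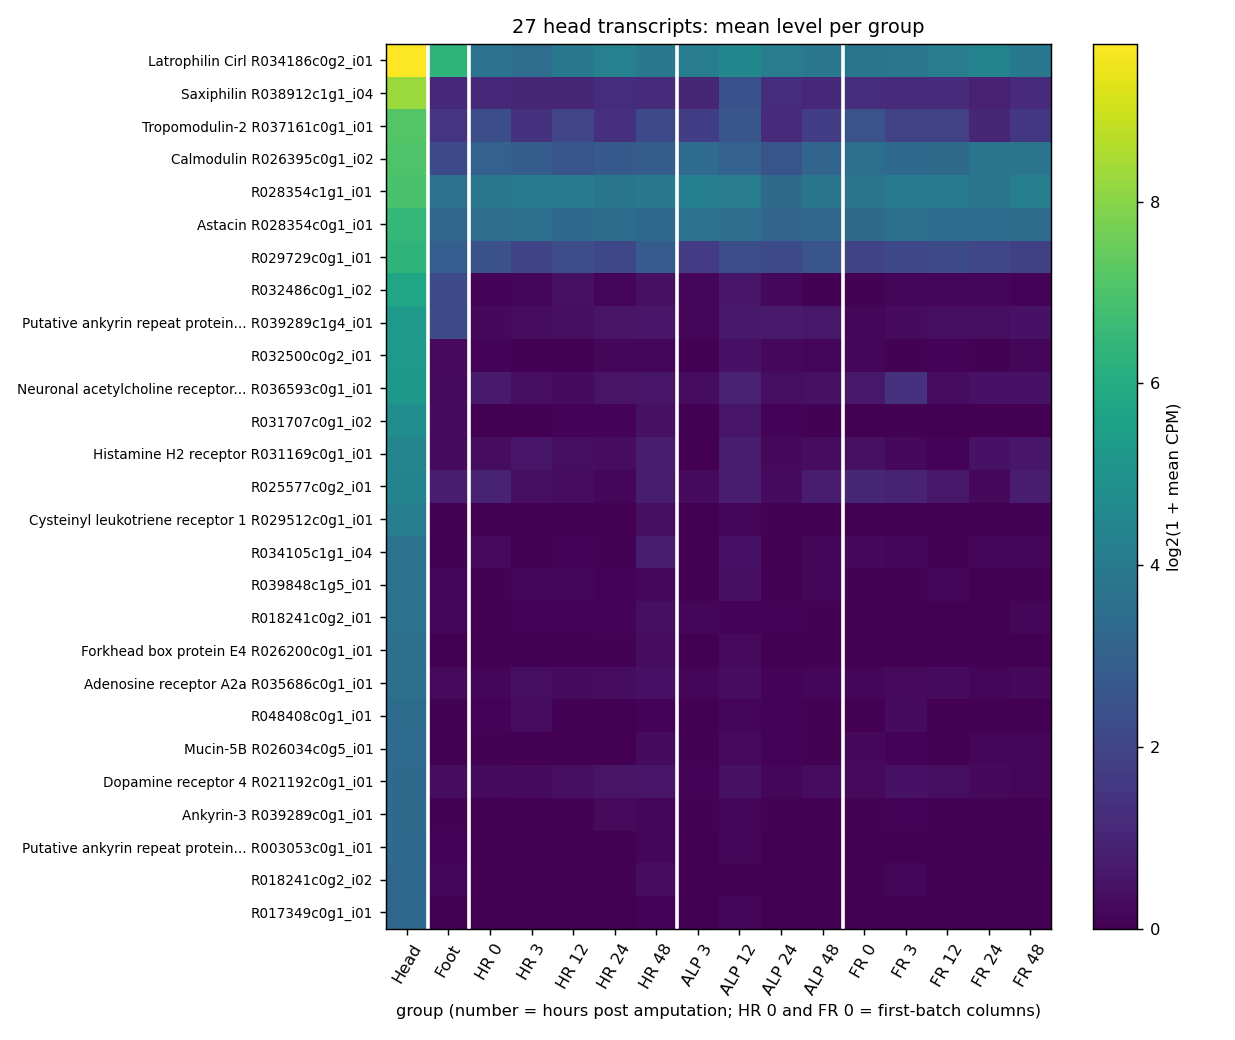
Mean level of each of the 27 transcripts (rows, ordered by mean CPM in Head) in each of the 16 groups (columns), as log2(1 + mean CPM). The Head column is the brightest of every row, Foot is raised in the rows of Latrophilin Cirl, R032486c0g1_i02 and R039289c1g4_i01, and the ALP 12 hpa column is slightly raised in many rows.

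The levels in Head were alike between libraries, with coefficients of variation of 2.77% to 20.2% over the 5 libraries. Latrophilin Cirl (R034186c0g2_i01), a relative of the fly receptor that tunes mechanosensory neurons, had 807, 799, 793, 941 and 916 CPM in Head. In Foot it had 74.5, 83.6, 72.9, 96.4 and 81.4 CPM, and in the first-batch HR libraries at 0 hpa 12.4, 11.6, 11.7 and 11.9 CPM. It was therefore high in heads, intermediate in feet and low in the body column, with no overlap between the 3 tissues. The same order held for R032486c0g1_i02 and for the ankyrin repeat match R039289c1g4_i01. R032486c0g1_i02 averaged 51.8 ± 8.88 CPM in Head (SD, n = 5), 3.60 CPM in Foot and 0.0795 CPM in HR at 0 hpa. R039289c1g4_i01 averaged 37.3 ± 3.43 CPM in Head (SD, n = 5), 3.67 CPM in Foot and 0.141 CPM in HR at 0 hpa. These 3 were the members whose Foot level was at least 1 above both 0 hpa levels on the log2(1 + CPM) scale. The sum of the 6 neuropeptide precursors of the nerve cell list had the same order, at 1048 to 1344 CPM in Head, 751 to 883 CPM in Foot and 35.7 to 43.8 CPM in HR at 0 hpa. Of these 6, 4 are head transcripts, which by the choice were at least 3 lower in Foot than in Head on the log2(1 + CPM) scale. Up to 3 of the 6 held no count in a Foot library. The sum therefore does not give the order of each precursor, and their part in the Foot values was not tested.

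Saxiphilin (R038912c1g1_i04) had 282, 314, 318, 312 and 314 CPM in Head, against 0.661 to 1.86 CPM in Foot. In HR tissue at 48 hpa it had 1.15, 1.12 and 1.42 CPM, against 1.44, 0.988, 0.752 and 1.48 CPM at 0 hpa. The 48 hpa libraries lay inside the range of the 0 hpa libraries, and the 48 hpa mean was 0.399% of the Head mean. Tropomodulin-2 (R037161c0g1_i01), which caps the slow-growing end of actin filaments, averaged 139 ± 7.999 CPM in Head (SD, n = 5). In HR at 48 hpa it had 4.71, 3.57 and 2.48 CPM, against 4.66, 3.14, 4.57 and 3.94 CPM at 0 hpa, and the 2 sets overlapped. The Astacin match R028354c0g1_i01 and its unnamed component partner R028354c1g1_i01 kept, in HR at 48 hpa, 9.45% and 11.9% of their Head means. Astacin had 9.58, 7.83 and 7.83 CPM in HR at 48 hpa, against 10.8, 10.3, 9.27 and 9.68 CPM at 0 hpa, and 81.7 to 93.2 CPM in Head. Its partner R028354c1g1_i01 had 16.0, 14.1 and 13.1 CPM in HR at 48 hpa, against 12.1, 15.2, 13.3 and 15.1 CPM at 0 hpa.

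Over the 27 members, the HR mean at 48 hpa was 0.231% to 11.9% of the Head mean, with a median of 2.36%. Over the other 259 head transcripts the median was 12.9%. The difference between 48 and 0 hpa in log2(1 + CPM) ran from -0.23 to 0.47 among the members, with a median of 0.21, and from 0.50 to 7.21 among the other head transcripts, with a median of 1.73. The 3 members just inside the limit were R034105c1g1_i04 at 0.474, R031707c0g1_i02 at 0.436 and Histamine H2 receptor (R031169c0g1_i01) at 0.424. The 3 head transcripts just outside were R032257c0g1_i01 at 0.501, R004446c0g1_i01 (Protein phosphatase 1 regulatory subunit 27) at 0.530 and R029618c0g1_i01 at 0.536. Members and other head transcripts thus form a continuous range, and the limit falls inside it.

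**Figure D2:**
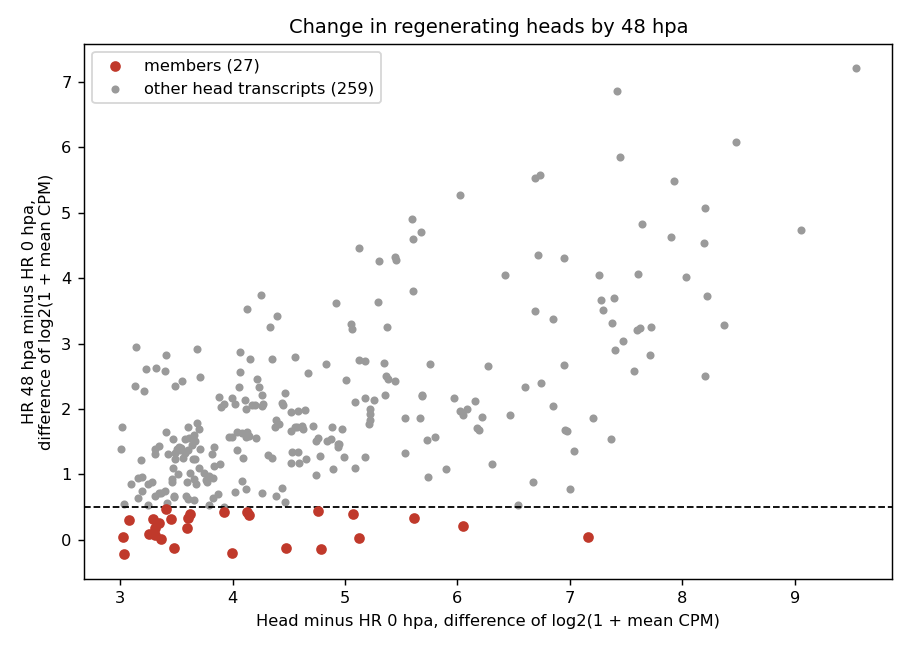
Each point is 1 of the 286 head transcripts, with the difference between Head and HR at 0 hpa on the horizontal axis and the difference between HR at 48 and 0 hpa on the vertical axis, both in log2(1 + mean CPM). The dashed line marks the limit of 0.5 below which the 27 members (red) lie, next to other head transcripts just above it.

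Related head genes of the same annotation lists lay on both sides of the limit. Of the 8 head transcripts that resemble amine receptors, the 2 members are Histamine H2 receptor and Dopamine receptor 4, and the other 6 differed by 0.63 to 1.39 between 48 and 0 hpa on the log2(1 + CPM) scale. Another Histamine H2 receptor match, R037343c0g2_i03, had mean levels of 1.12 CPM in HR at 48 hpa and 0.371 CPM at 0 hpa. Of the 6 head transcripts among small calcium sensors, 1 Calmodulin match (R026395c0g1_i02) is a member, whereas the Calmodulin match R031113c0g1_i01 had 48.2 CPM in HR at 48 hpa and 0.0945 CPM at 0 hpa. Latrophilin Cirl is the member among 6 adhesion receptors, the other 5 of which differed by 1.34 to 4.70. The acetylcholine receptor subunit is the member among 7 ligand-gated channels, the other 6 of which differed by 0.74 to 2.06. Astacin is the member among 8 secreted metalloproteinases, the other 7 of which differed by 0.54 to 3.28. Forkhead box protein E4 is the member among 9 transcription factors. The other 8, which include the tentacle factor match Zinc finger protein ZIC 4, differed by 2.02 to 5.57.

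The limit of 0.5 on the log2(1 + CPM) scale does not mean that a member stood at its 0 hpa level at 48 hpa. Of the 27 members, 20 averaged under 1 CPM in HR tissue at 0 hpa, and adding 1 CPM before the logarithm makes a many-fold difference between such levels small. In 11 members every HR library at 48 hpa lay above every first-batch HR library at 0 hpa. Over all 21302 transcripts with a count this share was 15.9%. In 9 members every HR library at 48 hpa lay above every FR library of that time, against 18.1% of all transcripts. The choice used these HR libraries, so nothing is read from either share. Forkhead box protein E4 (R026200c0g1_i01), a DNA-binding regulator, had 0.329, 0.267 and 0.197 CPM in HR at 48 hpa, against no count in any of the first-batch HR libraries at 0 hpa. These 16 counts put it at least 5.62-fold above a floor of 3 counts over the 0 hpa libraries, yet at 2.36% of its Head mean of 11.2 CPM. Cysteinyl leukotriene receptor 1 (R029512c0g1_i01), named for a mammalian lipid mediator receptor, had 0.110, 0.586 and 0.197 CPM in HR at 48 hpa, against no count at 0 hpa. The unnamed R031707c0g1_i02 had 0.329, 0.533 and 0.197 CPM in HR at 48 hpa, again against no count at 0 hpa. Histamine H2 receptor (R031169c0g1_i01) had 0.712, 0.746 and 0.512 CPM in HR at 48 hpa, against 0.263, 0.232, 0.251 and 0.194 CPM at 0 hpa. Dopamine receptor 4 (R021192c0g1_i01) had 0.602, 0.533 and 0.394 CPM in HR at 48 hpa, against 0.328, 0.232, 0 and 0.323 CPM at 0 hpa. The same separation held for R034105c1g1_i04, the ankyrin repeat match R039289c1g4_i01, Mucin-5B, and R018241c0g2_i01 and R018241c0g2_i02, at 1.35% to 5.68% of their Head means in HR at 48 hpa. Mucin-5B (R026034c0g5_i01), in mammals a gel-forming secreted protein, had 8.32 to 10.3 CPM in Head and no count in any Foot library. These members were thus detected at trace levels in regenerating heads. In Histamine H2 receptor, R039289c1g4_i01, Mucin-5B and R018241c0g2_i01 the FR libraries at 48 hpa overlapped the HR libraries. Their trace levels were therefore not particular to regenerating heads. Histamine H2 receptor had 0.659, 0.482 and 0.428 CPM in FR at 48 hpa, and Mucin-5B had 0.116, 0.268 and 0 CPM. In the other members named in this paragraph every HR library at 48 hpa lay above every FR library of that time. This covers only that time, and other tissues were not always lower. Dopamine receptor 4 had 0.757 CPM in a second-batch FR library at 0 hpa and 0.573 CPM in an FR library at 3 hpa. Cysteinyl leukotriene receptor 1 had 0.239 CPM in a Foot library. Its lowest HR library and its highest FR library at 48 hpa held 2 counts each.

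In other members the 48 and 0 hpa libraries overlapped, as in R032500c0g2_i01, which had 0, 0.0533 and 0.197 CPM in HR at 48 hpa, against 0, 0, 0.0626 and 0.194 CPM at 0 hpa and 32.2 to 39.2 CPM in Head. They overlapped also in R039848c1g5_i01, R048408c0g1_i01, Adenosine receptor A2a (R035686c0g1_i01) and Ankyrin-3 (R039289c0g1_i01), which stood in HR at 48 hpa at 0.669% to 3.40% of their Head means. R017349c0g1_i01 had no count in 50 of the 56 libraries outside Head and 7.85 to 9.68 CPM in Head. The means of 5 members were lower in HR at 48 hpa than at 0 hpa, among them Calmodulin, with 5.53, 6.08 and 7.28 CPM at 48 hpa against 7.68, 7.61, 7.27 and 7.17 CPM at 0 hpa. Among the 7 members at 1 CPM or more at 0 hpa, only the unnamed R029729c0g1_i01 was separated, with 7.45, 5.86 and 5.27 CPM in HR at 48 hpa, against 4.13, 4.24, 4.32 and 4.84 CPM at 0 hpa, without overlap.

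**Figure D3:**
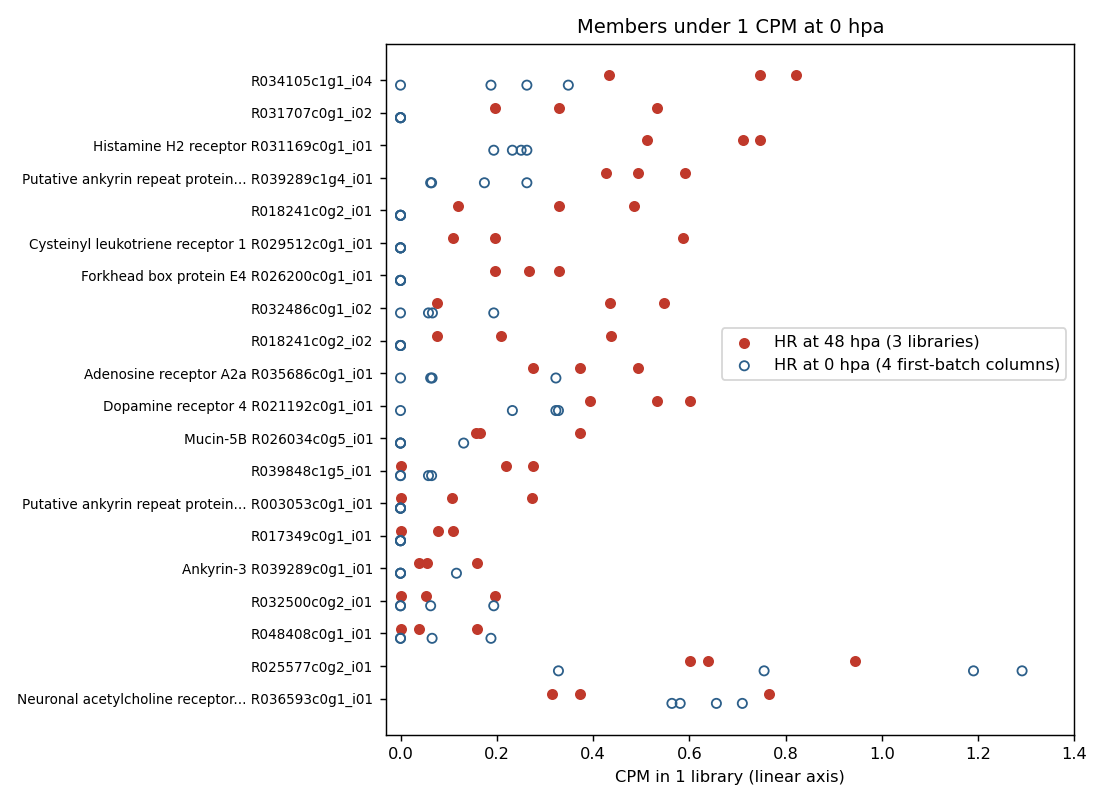
Level in each HR library at 48 hpa (filled, 3 libraries) and in each first-batch HR library at 0 hpa (open, 4 libraries) for the 20 members under 1 CPM at 0 hpa, on a linear CPM axis. In 10 of these rows all filled points lie to the right of all open points, and no point exceeds 1.29 CPM.

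Whether the members differed between wounds was tested in libraries the choice did not use, with edgeR's quasi-likelihood test over all transcripts and a Benjamini-Hochberg adjusted p under 0.01. All 27 passed the filter on low counts in the 61-library fit, many of them only through counts in groups not compared, such as Head. Between HR and FR tissue, 1 member was called at each of 3, 12 and 24 hpa, and each of these was lower in HR. Over all 17676 transcripts tested, 2.94% were called at 3 hpa (1.67% lower in HR), 8.84% at 12 hpa (4.2% lower) and 4.46% at 24 hpa (1.97% lower). When only the libraries of the 2 groups were fitted, 9, 7 and 7 members passed the filter at 3, 12 and 24 hpa, and the same member was called at each time.

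Calmodulin (R026395c0g1_i02), the calcium sensor, was the member that differed between wounds at 12 and 24 hpa. At 12 hpa it had 4.40, 3.98 and 6.06 CPM in HR, against 9.38, 9.16 and 9.28 CPM in FR, a log2 fold change of -0.998 ± 0.20 (SE, adjusted p = 4.07e-04). At 24 hpa it had 5.82, 5.02 and 6.26 CPM in HR, against 13.1, 11.5 and 12.3 CPM in FR, a log2 fold change of -1.11 ± 0.19 (SE, adjusted p = 2.47e-05). HR and FR did not overlap at either time, and both calls were kept without any 1 library of the groups compared. At 48 hpa it had 5.53, 6.08 and 7.28 CPM in HR and 12.8, 12.6 and 12.1 CPM in FR, and in the second-batch 0 hpa libraries 6.83, 8.01 and 5.77 CPM in HR and 11.1, 12.8 and 11.3 CPM in FR. The HR libraries were thus also below the FR libraries at 0 hpa, and both wounds were far below the 120 to 140 CPM of Head.

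The acetylcholine receptor subunit (R036593c0g1_i01), part of a fast neurotransmitter receptor, differed at 3 hpa. It had 0.271, 0.340 and 0.219 CPM in HR at 3 hpa, from 4 to 6 counts a library, against 2.14, 1.62 and 1.15 CPM in FR, from 18 to 32 counts. The log2 fold change was -2.51 ± 0.47 (SE, adjusted p = 2.16e-04). At 0 hpa, over both batches, the HR libraries had 0.397 to 0.735 CPM and the FR libraries 0.341 to 0.972 CPM, with overlap. The FR libraries at 3 hpa thus lay above all FR libraries at 0 hpa, and the HR libraries at 3 hpa below all HR libraries at 0 hpa. At 12, 24 and 48 hpa the HR libraries had 0.0544 to 0.766 CPM and the FR libraries 0.204 to 0.433 CPM, and the 2 wounds overlapped at each time. Outside Head, the FR libraries at 3 hpa and ALP replicate 1 at 12 hpa (1.86 CPM) were the ones above 1 CPM, and Head had 31.6 to 37.4 CPM.

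The change since the cut was tested in the second batch alone, at 24 against 0 hpa. Only 9 members passed the filter on low counts there, since the fit holds no Head library. Of these 9, 1 was called higher and 1 lower in HR, and 1 higher and 2 lower in FR, where 25.9% (HR) and 23.9% (FR) of all 16160 transcripts tested were called. In HR 13.8% of all transcripts were called higher and 12.1% lower, and in FR 11.7% higher and 12.3% lower. Among the 187 other head transcripts tested, 100 were called higher in HR and 44 in FR.

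Latrophilin Cirl was the member called higher at both wounds. It had 18.3, 17.5 and 17.7 CPM in HR at 24 hpa, against 13.0, 14.4 and 16.2 CPM at 0 hpa, a log2 fold change of 0.38 ± 0.09 (SE, adjusted p = 0.00204). The call was lost without HR replicate 5 at 0 hpa (adjusted p = 0.0184) and without HR replicate 1 at 24 hpa (adjusted p = 0.0111). In FR it had 20.7, 19.3 and 19.1 CPM at 24 hpa, against 14.5, 17.0 and 14.7 CPM at 0 hpa, a log2 fold change of 0.40 ± 0.09 (SE, adjusted p = 0.00132). This call was lost without FR replicate 7 at 0 hpa (adjusted p = 0.0118) and when only the libraries of the 2 groups were fitted (adjusted p = 0.01003). Against a minimum fold of 1.2 neither call held (adjusted p = 0.164 in HR and 0.127 in FR). The HR mean at 48 hpa was 1.64% of that in Head.

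Tropomodulin-2 was called lower at 24 hpa in FR, and the unnamed R025577c0g2_i01 in both FR and HR. Tropomodulin-2 had 1.12, 1.05 and 1.07 CPM in FR at 24 hpa, against 3.51, 4.71 and 4.62 CPM at 0 hpa, a log2 fold change of -1.95 ± 0.23 (SE, adjusted p = 1.38e-06). In HR it had 1.27, 1.41 and 1.94 CPM at 24 hpa, against 2.38, 3.18 and 2.72 CPM at 0 hpa. The groups did not overlap, but the log2 fold change of -0.78 ± 0.23 (SE) missed the threshold (adjusted p = 0.0116). The difference between the 2 wounds in this change was 1.16 ± 0.34 (SE, adjusted p = 0.0764), in a comparison that called 1.23% of all transcripts. R025577c0g2_i01 had 0, 0.184 and 0.0645 CPM in HR at 24 hpa, from 0 to 3 counts a library, against 0.617, 0.728 and 1.30 CPM at 0 hpa, a log2 fold change of -3.29 ± 0.70 (SE, adjusted p = 7.48e-04). In FR it had 0.0507, 0.0619 and 0.316 CPM at 24 hpa, against 0.596, 0.920 and 0.933 CPM at 0 hpa, with a log2 fold change of -2.28 ± 0.59 (SE, adjusted p = 0.00423). This FR call was lost without either FR replicate 6 or 7 at 0 hpa, or without either FR replicate 1 or 2 at 24 hpa (adjusted p = 0.0124 to 0.0283), and against a minimum fold of 1.2 (adjusted p = 0.0126).

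**Figure D4:**
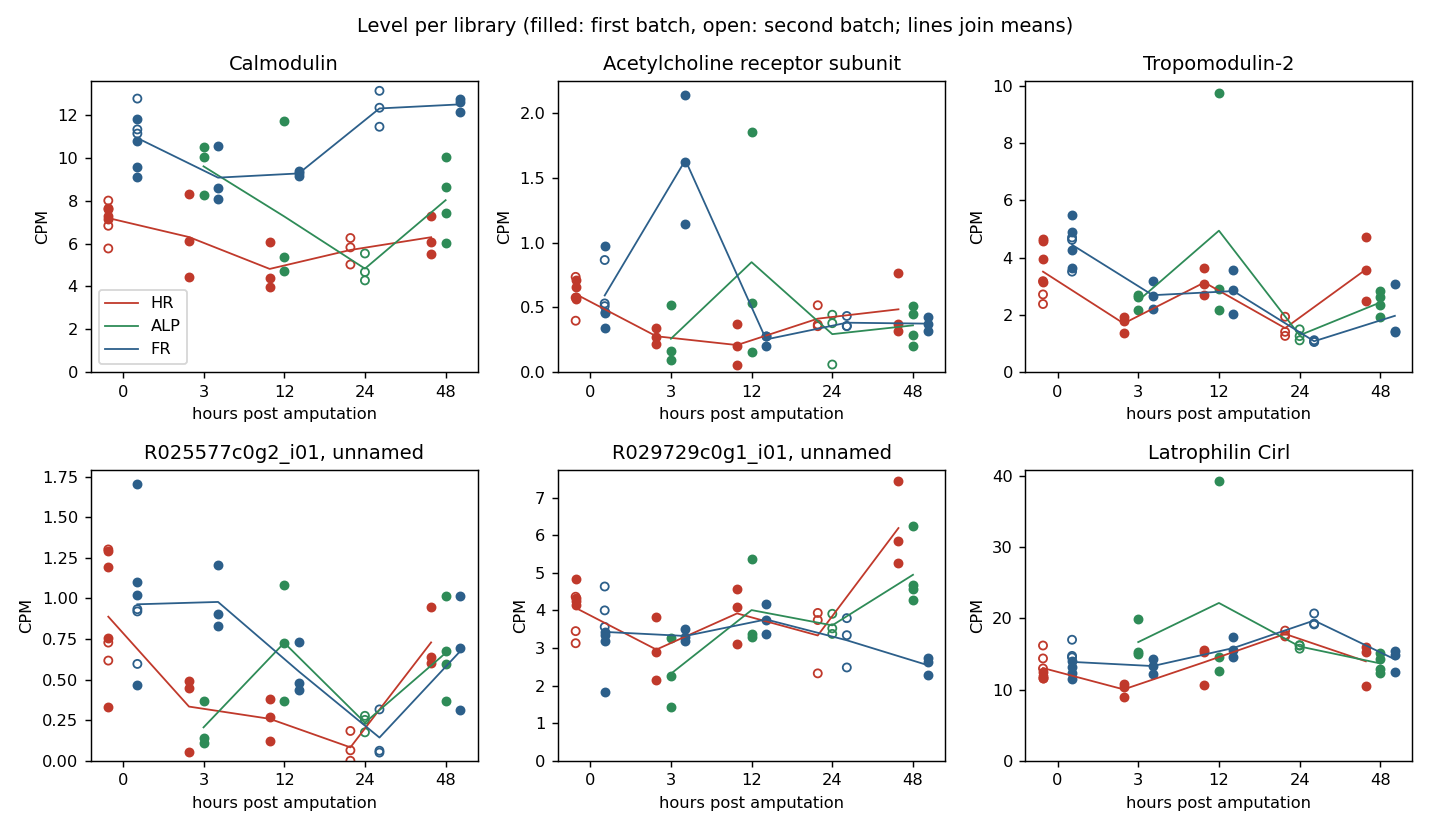
Level per library in CPM at 0, 3, 12, 24 and 48 hpa in HR (red), ALP (green) and FR (blue) tissue for 6 members named in the text, with filled points for the first batch, open points for the second and lines through the means. Calmodulin lies lower in HR than in FR at each time except for 1 HR library at 3 hpa. At 12 hpa 1 ALP library stands above the other ALP libraries of that time in each panel, least so in R025577c0g2_i01 and R029729c0g1_i01.

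Alsterpaullone was compared with DMSO at the aboral wound at each time, so the same FR libraries serve as the control of both the ALP and the HR comparisons at 3, 12 and 24 hpa. With only the libraries of the 2 groups fitted, 9, 8, 7 and 10 members passed the filter on low counts at 3, 12, 24 and 48 hpa. At 3 hpa, when the drug was removed, 2 members were called and both were lower in ALP, where 13.1% of all transcripts were called, 6.91% lower. The acetylcholine receptor subunit had 0.0918, 0.164 and 0.516 CPM in ALP, from 2 to 11 counts a library, against the 2.14, 1.62 and 1.15 CPM in FR, a log2 fold change of -2.52 ± 0.47 (SE, adjusted p = 7.47e-05). R025577c0g2_i01 had 0.367, 0.109 and 0.141 CPM in ALP, against 1.21, 0.901 and 0.827 CPM in FR, a log2 fold change of -2.07 ± 0.55 (SE, adjusted p = 0.00423). The second call was lost without any 1 of 4 of the 6 libraries (adjusted p = 0.0101 to 0.0291), and against a minimum fold of 1.2 (adjusted p = 0.0167).

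At 12 hpa, 2 members were called, both higher in ALP, where 4.01% of all transcripts were called, 2.31% higher. Saxiphilin had 10.4, 1.79 and 1.48 CPM in ALP, against 1.27, 1.47 and 0.962 CPM in FR, a log2 fold change of 1.78 ± 0.37 (SE, adjusted p = 7.42e-04). Histamine H2 receptor had 1.55, 0.435 and 0 CPM in ALP, against 0.0795, 0.163 and 0 CPM in FR, a log2 fold change of 2.70 ± 0.68 (SE, adjusted p = 0.00630). The first value of each is ALP replicate 1, which was the highest of the 6 ALP and FR libraries at 12 hpa in 27 of 27 members. Over all transcripts with a count it was the highest in 22.5%. Histamine H2 receptor, with 30, 9 and 0 counts in ALP and 2, 4 and 0 counts in FR, passed the filter through its counts in other groups and was not tested when only the libraries of the 2 groups were fitted, so its values are a description. Its call was also lost without any 1 of the FR libraries (adjusted p = 0.0125 to 0.0380) and against a minimum fold of 1.2 (adjusted p = 0.0183). The Saxiphilin call was lost when only the libraries of the 2 groups were fitted (adjusted p = 0.0776). Without ALP replicate 1 neither call remained, with log2 fold changes of 0.35 (Saxiphilin, adjusted p = 0.537) and 1.21 (Histamine H2 receptor, adjusted p = 0.436).

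ALP replicate 1 at 12 hpa held more of the head transcripts as a whole. The members summed to 127 CPM in it, against 49.6 and 52.3 CPM in ALP replicates 2 and 3 and 58.0 to 61.2 CPM in FR at 12 hpa. The other 259 head transcripts summed to 5425 CPM in it, against 2323 and 2095 CPM in the other ALP libraries and 1723 to 1816 CPM in FR. In this library each member stood 1.01% to 9.02% of the way between the mean of the other 5 libraries and its mean in Head, with a median of 3.02%. Forkhead box protein E4 had 0.515 CPM in ALP replicate 1 and no count in the other 5 libraries. The 4 head markers summed to 16.8 CPM in it, against 8.85 and 7.58 CPM in the other ALP libraries and 6.32 to 9.12 CPM in FR. The 6 neuropeptide precursors summed to 147 CPM in it, against 96.1 and 88.7 CPM in the other ALP libraries and 79.4 to 83.2 CPM in FR. None of the 27 members was at 0 counts in this library, against 8 and 10 in the other ALP libraries and 9 to 12 in FR. The part of this library's make-up in the 12 hpa calls was not tested beyond leaving it out. Without it, 1 member was called, Calmodulin, which was lower in ALP (log2 fold change -0.90 ± 0.18, SE, adjusted p = 6.57e-04). Calmodulin had 11.7, 4.74 and 5.35 CPM in the 3 ALP libraries, against 9.38, 9.16 and 9.28 CPM in FR, and 2.03% of all transcripts were called in that fit.

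**Figure D5:**
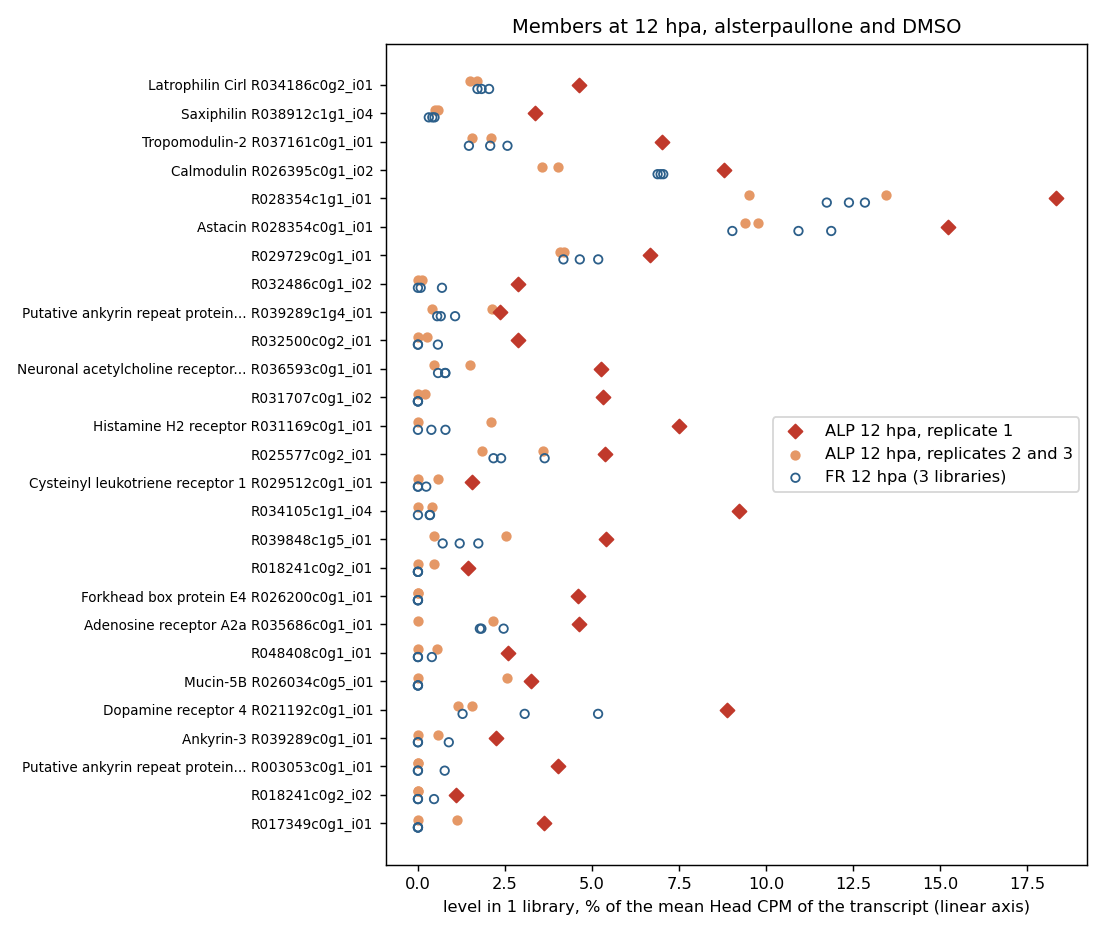
Level of each of the 27 members at 12 hpa in ALP replicate 1 (diamonds), ALP replicates 2 and 3 (filled circles) and the 3 FR libraries (open circles), as a percentage of the member's mean CPM in Head, on a linear axis. The diamond is the rightmost point in every row.

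At 24 hpa Calmodulin was the 1 member called, where 10.9% of all transcripts were called, 6.11% lower. It had 4.28, 4.67 and 5.54 CPM in ALP, against the 13.1, 11.5 and 12.3 CPM in FR, a log2 fold change of -1.36 ± 0.20 (SE, adjusted p = 4.38e-07). The groups did not overlap. At 48 hpa 1 member was called higher and 1 lower, where 16.1% of all transcripts were called, 8.97% higher and 7.1% lower. R029729c0g1_i01 had 4.28, 6.26, 4.68 and 4.58 CPM in ALP, against 2.29, 2.73 and 2.62 CPM in FR, a log2 fold change of 0.94 ± 0.21 (SE, adjusted p = 5.99e-04), and the call was kept without any 1 library of the groups compared. Calmodulin had 6.03, 10.03, 8.62 and 7.42 CPM in ALP at 48 hpa, against 12.8, 12.6 and 12.1 CPM in FR. The log2 fold change was -0.67 ± 0.16 (SE, adjusted p = 0.00122), and the call was lost without ALP replicate 1 (adjusted p = 0.0117) and against a minimum fold of 1.2 (adjusted p = 0.0329). In none of the alsterpaullone groups did a member's mean come near its Head level. The lowest Head library was 4.91 to 31.2 times the highest library outside Head.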

How the data were processed

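Per the labels and the study's methods, the authors trimmed paired reads with Trimmomatic (0.39 in the submitters' processing notes), mapped them with Bowtie2 to a redundancy-reduced transcriptome and estimated counts per transcript with RSEM. The deposited expected counts (61 columns, 5.33% of values not whole) precede any batch correction, and 31 columns name only their group. Counts were rounded and tested with edgeR 4.0.16 (R 4.3.3): TMM scaling, filterByExpr by group, quasi-likelihood fits with a term per group and, over 61 libraries, a batch term (0.4 for Head and Foot). A second fit used 15 second-batch libraries. Each log2 fold change is the first group over the second. The 2 groups of each comparison share a batch. The p-values measure the spread between pools of animals.

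The members and lists were chosen with earlier results of these data known. Named are members with the 8 highest Head levels among those with a protein name, the 3 highest unnamed, up to 3 per annotation list, up to 4 called each way per comparison, and those beside the 48 hpa limit. Others are named because a sentence turns on them and were chosen after their values were seen. Protein names come from the study's tables, which are held in part. CPM was not divided by length, so levels are compared within a transcript. Tests of differences between comparisons, and fits that all leave out ALP replicate 1 at 12 hpa, were added after seeing the data. The fits were tested on simulated data, in which only transcripts averaging at least 1 CPM over the libraries were changed. Of the 2-fold changes, 76% were recovered for HR against FR at 12 hpa and 88% for HR at 24 against 0 hpa. Most members were under 1 CPM outside Head, and recovery at such levels was not measured. Alternatives were another scaling, DESeq2 1.42.0, no filter, a minimum fold of 1.2, no batch term, 2 groups alone, a replicate block and single libraries left out.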

Additional observations from a re-analysis of the deposited data

Results flagged for a closer look

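In 3 of the Dixon tests run on groups of 4 to 10 libraries, 1 Head library lay apart from the other 4. Saxiphilin had 282 CPM in the Head library numbered 2, against 312 to 318 CPM in the others. R031707c0g1_i02 had 21.98 CPM in the Head library numbered 3, against 26.5 to 28.0 CPM in the others. R029729c0g1_i01 had 76.6 CPM in the Head library numbered 2, against 81.2 to 81.8 CPM in the others. Chance sets apart about 1 in 20 such groups, and 62 were tested.

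For 2 members the difference of the ALP over FR fold changes between 12 and 3 hpa passed the threshold. For the acetylcholine receptor subunit (R036593c0g1_i01) the log2 fold change of ALP over FR was 4.21 ± 0.70 higher at 12 hpa than at 3 hpa (SE, edgeR adjusted p = 1.15e-05), and 2.99 ± 0.75 higher without ALP replicate 1 at 12 hpa (adjusted p = 0.00319). For Histamine H2 receptor (R031169c0g1_i01) it was 5.55 ± 1.47 higher (adjusted p = 0.00422), and 4.05 ± 1.36 higher without that library (adjusted p = 0.0296), where it was no longer called. The Histamine H2 receptor value rests on 0, 0 and 1 counts in ALP and 3, 3 and 2 counts in FR at 3 hpa, in a transcript that passed the filter on low counts through other groups, and no effect is read from it. Of all transcripts, 13.3% were called in this comparison, and 10.4% without that library. Without it the difference was also called for Calmodulin (-1.08 ± 0.23, adjusted p = 6.26e-04) and Latrophilin Cirl (-0.67 ± 0.19, adjusted p = 0.00869). For the acetylcholine receptor subunit, ALP over FR at 12 hpa alone was not called (log2 fold change 1.69 ± 0.52, SE, edgeR adjusted p = 0.0294). Without ALP replicate 1 it was 0.47 ± 0.59 (SE, adjusted p = 0.724). Its difference between 12 and 3 hpa is therefore not read as a rise under alsterpaullone at 12 hpa.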

How the results depend on the processing

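The number of members was 14 or 71 with a 48 hpa limit of 0.25 or 1, and 117 or 7 with a head difference of 2 or 4. It was 34 with TMM-scaled library sizes and 27 with the second-batch 0 hpa libraries, 24 of them shared. Without 1 HR 48 hpa or Head library it ran from 25 to 32. With a minimum fold of 1.2 (edgeR's glmTreat), 1 member was called in each of ALP against FR at 3, 12 and 48 hpa and, in the second batch, HR and FR at 24 against 0 hpa. With only the libraries of ALP and FR at 12 hpa, edgeR called 0 of the 8 members tested, 1 at an unadjusted p under 0.05, where DESeq2 over all libraries called 2. A replicate block over the 24 hpa libraries called 2 members for ALP against FR. Same-numbered libraries there correlated between -0.02 and 0.07, and other-numbered ones between -0.07 and 0.04. Both were weak, and the main fits held no replicate block. Without 1 library, 1 to 6 members were called for ALP against FR at 12 hpa, 1 to 3 at 3 hpa and at 48 hpa, 1 to 3 in each second-batch comparison, and 1 in each HR against FR comparison and for ALP at 24 hpa. No called difference changed direction under any alternative. At these depths many members held only a few counts a library outside Head, and small differences among them were not detectable.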
